A study of Sus scrofa with 8 samples.

Results

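Apolipoproteins and the proteins that build chylomicrons, the particles in which the small intestine exports dietary fat, were followed in the jejunum of weaned and suckling piglets. The set was fixed by gene symbol: APOA1, APOA4, APOB, APOC2, APOC3, APOE, MTTP, SAR1B and CREB3L3. A gene entered when the RefSeq accession of at least 1 probe mapped to its symbol, and the probe with the highest mean log2 signal over all arrays stood for it. Of the 9 genes, 6 had such a probe (APOA1, APOA4, APOC3, APOE, MTTP and SAR1B), with 13 probes among 43603 on the array. APOB, the scaffold of the particle, APOC2, the activator of lipoprotein lipase, and CREB3L3, a transcription factor of liver and gut, had none by this rule and are not analysed here. The microarrays, with 1 dye and 1 piglet each, measured total RNA from the middle jejunum of Duroc × Landrace piglets aged 25 days. The 4 weaned piglets had been taken from the sow at 21 days and fed a basal diet to appetite, so they were sampled 4 days after weaning. The 4 suckling piglets stayed with the sow. Both groups came from the same 4 litters, and a piglet near the average weight was taken per litter and treatment; the labels do not say which replicate came from which litter.

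Enterocytes take up fatty acids and monoglycerides from digested milk fat or feed fat, rebuild them into triglycerides and load these onto apolipoprotein B in the endoplasmic reticulum with the help of the microsomal triglyceride transfer protein, MTTP. The particle gains further apolipoproteins, leaves the endoplasmic reticulum in vesicles whose coat is recruited by the GTPase SAR1B, and is secreted into lymph. In mammals the genes of APOA1, APOC3 and APOA4 lie side by side, and in the pig gene table used for names they are likewise neighbours, in the order APOA4, APOC3 and APOA1.

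Levels are given as log2 signal minus the log2 of the array's 75th percentile, so that 0 marks that percentile and a step of 1 is a doubling. On each array 67.6% to 71.0% of probes stood well above background. The 75th percentile of the processed signal lay between 317 and 390 on the weaned arrays and between 245 and 395 on the suckling arrays, with the lowest value on suckling replicate 1. This array correlated less with the other suckling arrays (r = 0.953 to 0.967 across 30554 probes, which are not independent) than these did with each other (0.978 to 0.983). It correlated better with weaned replicates 1, 2 and 4 (0.978, 0.9755 and 0.9751) than with any suckling array, so results are given with and without it. All weaned arrays lay on one slide and all suckling arrays on another, so a difference between slides and one between groups cannot be told apart. Each array held RNA of a piece of gut wall, so that fewer cells of a type and less RNA per cell cannot be told apart.

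Suckling replicate 1 also stood apart in its cell type markers. All 6 tested markers of villus enterocytes (ANPEP, DPP4, ENPEP, SLC5A1, SLC15A1 and XPNPEP2, of 15 listed) were lower there than on the other 3 suckling arrays, which held for 30.4% of all tested probes. Their summed signal, in multiples of the 75th percentile, was 243 to 501 on the weaned arrays, against 103 on suckling replicate 1 and 471 to 772 on the other suckling arrays. All 6 were well above background on all 8 arrays. Of 5 tested markers of the epithelium as a whole, 4 (EPCAM, CDH1, CLDN3 and CLDN7) were lower on suckling replicate 1 than on the other suckling arrays, CLDN7 at 3.99 there; KRT8, the brightest, was not, at 8.26. The median of the mean-centred levels of these 5 was -0.14 to 0.16 on the weaned and -0.26 to 0.23 on the suckling arrays, lowest on suckling replicate 1. Their sum, carried by KRT8, was 523 to 706 on the weaned and 463 to 481 on the suckling arrays. Markers of crypt and dividing cells, 5 of 5 with a higher mean in weaned piglets, summed to 21.9 to 32.0 on the weaned arrays, against 31.2 on suckling replicate 1 and 12.4 to 20.1 on the other suckling arrays. All 3 tested goblet and Paneth cell markers had a higher mean in weaned piglets (sum 275 to 374 on the weaned and 83.1 to 245 on the suckling arrays), and all 4 endothelial markers a lower one (sum at most 11.9 on the weaned and at least 13.2 on the suckling arrays; 3 with an unadjusted limma p under 0.05). No marker of these 4 lists passed the threshold with 8 arrays, and 1, of crypt and dividing cells, did without suckling replicate 1. Over all tested probes with 8 arrays, 45.1% had a lower mean in weaned piglets and 12.3% an unadjusted limma p under 0.05. The part of these cell types in the results below was not tested. Liver, the other main source of these apolipoproteins, was followed by 5 tested markers; their sum was 2.52 to 5.81 on the weaned and 2.10 to 6.75 on the suckling arrays, and albumin had a log2 level of -5.11 to -4.50 on the weaned and -4.89 to -3.57 on the suckling arrays.

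None of the 6 genes passed the test between weaned and suckling piglets. The mean was lower in weaned piglets for 5 of 6, as for 45.1% of all tested probes, and APOE had a higher one. By limma, 0 of 6 had an adjusted p under 0.05 over all 30554 tested probes, where 0.177% of probes had one, and 0 of 6 had an unadjusted p under 0.05, where 12.3% of probes had one. The median log2 difference of the 6 genes, weaned minus suckling, was -0.39, against 0.04 over all tested probes. All 6 were well above background on all 8 arrays, and no probe was saturated.

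**Figure D1:**
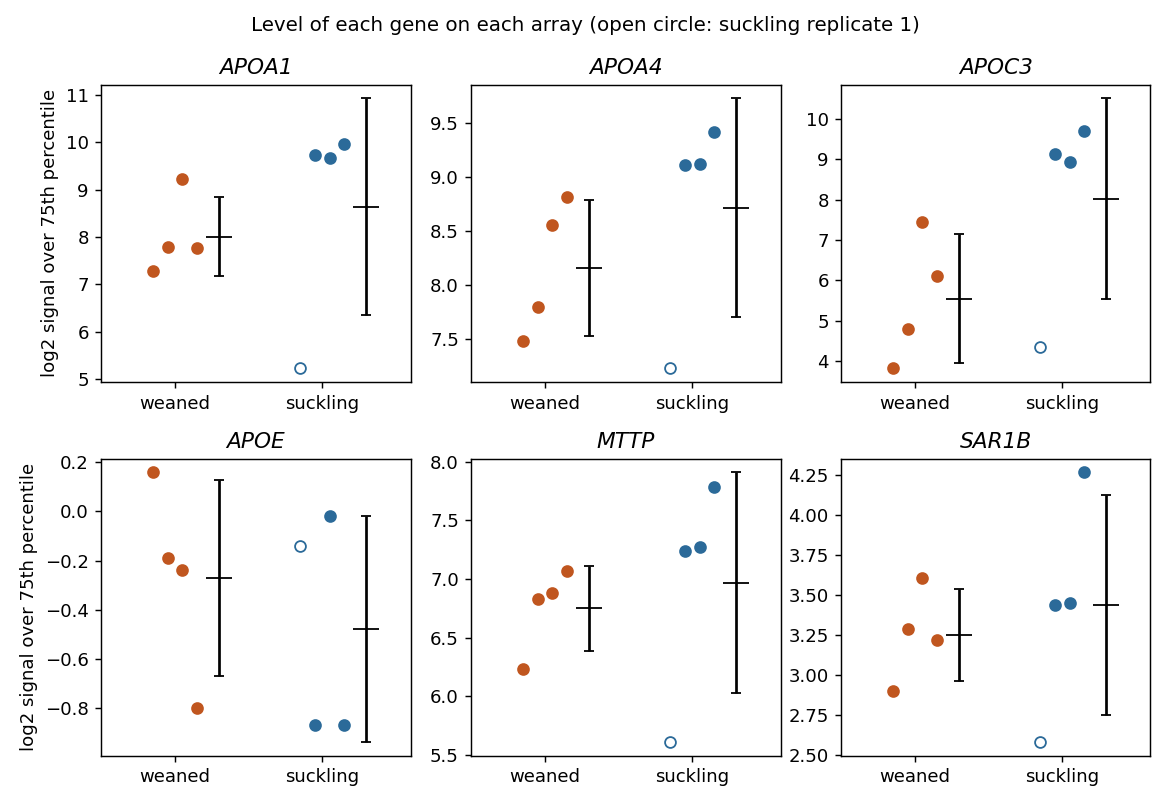
Level of each of the 6 genes on each array, as log2 signal over the array's 75th percentile, with weaned piglets on the left and suckling piglets on the right of each panel. Bars show the mean and SD of 4 arrays. Suckling replicate 1, drawn as an open circle, lies below the other 3 suckling arrays in every panel except that of APOE.

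APOC3, an apolipoprotein that slows the clearance of triglyceride-rich particles by inhibiting lipoprotein lipase, showed the widest spread. Its processed signal was 4480, 10700, 68900 and 26600 in weaned replicates 1 to 4, against 4960, 219000, 194000 and 286000 in suckling replicates 1 to 4. On the log2 scale this was 3.82, 4.79, 7.46 and 6.11 in weaned piglets and 4.34, 9.13, 8.94 and 9.71 in suckling piglets. The groups overlapped through suckling replicate 1 alone, which lay below 3 of the 4 weaned arrays; the other 3 suckling arrays lay above all weaned arrays. The means were 5.55 ± 1.59 in weaned and 8.03 ± 2.48 in suckling piglets (SD, n = 4 each), 5.59-fold lower in weaned piglets, a log2 difference of -2.48 (SE 1.21, 95% interval -5.21 to 0.25, limma adjusted p = 0.449). Without suckling replicate 1 the difference was -3.71 (SE 0.76, interval -5.46 to -1.96), 13.1-fold, and its limma adjusted p of 0.0533 missed the threshold. The second APOC3 probe gave -2.51 with all arrays (limma adjusted p = 0.508) and -3.98 without suckling replicate 1 (0.0544). The spread was wide within groups too: the SD of APOC3 exceeded that of 99.5% of tested probes among weaned arrays and 99.7% among suckling arrays.

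APOA1, the main protein of high-density lipoproteins, which the gut adds to chylomicrons, was 7.28, 7.79, 9.22 and 7.76 in weaned piglets, against 5.23, 9.73, 9.66 and 9.95 in suckling piglets. Suckling replicate 1 was the lowest of all 8 arrays, and the other 3 suckling arrays were close together and all above the weaned arrays. The means were 8.01 ± 0.84 and 8.64 ± 2.28 in weaned and suckling piglets (SD, n = 4 each), a log2 difference of -0.63 (SE 1.00, 95% interval -2.88 to 1.62, limma adjusted p = 0.834). Without suckling replicate 1 it was -1.76 (SE 0.41, interval -2.71 to -0.82), 3.40-fold lower in weaned piglets (limma adjusted p = 0.0683), whereas without suckling replicate 2, 3 or 4 it was -0.27, -0.29 or -0.19. The second APOA1 probe differed by -0.68 with all arrays and by -1.85 without suckling replicate 1.

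APOA4, an apolipoprotein that the intestine makes in response to fat and that is known in rodents as a satiety signal, was 7.48, 7.80, 8.56 and 8.82 in weaned piglets, against 7.23, 9.11, 9.12 and 9.42 in suckling piglets. As for APOA1, suckling replicate 1 was the lowest and suckling replicate 4 the highest of all arrays, but within the weaned group replicate 4 was highest for APOA4 and replicate 3 for APOA1 and APOC3. The means were 8.16 ± 0.63 in weaned and 8.72 ± 1.01 in suckling piglets (SD, n = 4 each), a log2 difference of -0.56 (SE 0.50, 95% interval -1.68 to 0.57, limma adjusted p = 0.690). Without suckling replicate 1 it was -1.05 (SE 0.32, interval -1.80 to -0.31, limma adjusted p = 0.117). The dimmer APOA4 probe moved further, by -0.98 and -1.80, and missed the threshold in both (limma adjusted p = 0.642 and 0.0654).

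APOE, a ligand of the receptors that clear lipoprotein remnants, made by the liver and by macrophages among others, had another pattern over the arrays than the other 3 apolipoproteins. Its only probe was 0.16, -0.19, -0.24 and -0.80 in weaned piglets, against -0.14, -0.87, -0.02 and -0.87 in suckling piglets. The groups overlapped over nearly their whole range, and suckling replicate 1 lay among the higher arrays. The means were -0.27 ± 0.40 in weaned and -0.48 ± 0.46 in suckling piglets (SD, n = 4 each), a log2 difference of 0.21 (SE 0.28, 95% interval -0.41 to 0.83, limma adjusted p = 0.796). Macrophage and dendritic cell markers had a higher mean in weaned piglets in 6 of 6 tested genes (12 listed), with none past the threshold. Over all tested probes, 45.1% had a lower mean in weaned piglets. The summed signal of these markers was 42.1 to 56.7 on the weaned and 32.8 to 41.9 on the suckling arrays. Their part in the APOE level was not tested.

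MTTP, which transfers lipid onto apolipoprotein B, was 6.23, 6.83, 6.88 and 7.07 in weaned piglets, against 5.61, 7.24, 7.27 and 7.78 in suckling piglets. Again suckling replicate 1 was lowest of all and the other suckling arrays were above every weaned array, though only just. The means were 6.75 ± 0.36 and 6.97 ± 0.94 in weaned and suckling piglets (SD, n = 4 each), a log2 difference of -0.22 (SE 0.43, 95% interval -1.19 to 0.74, limma adjusted p = 0.866). Without suckling replicate 1 it was -0.68 (SE 0.24, interval -1.22 to -0.13, limma adjusted p = 0.149), and without suckling replicate 4 it turned to 0.04.

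SAR1B, the GTPase that starts the coat of the vesicles carrying chylomicron precursors, was 2.90, 3.29, 3.61 and 3.22 in weaned piglets, against 2.58, 3.44, 3.45 and 4.27 in suckling piglets. Here weaned replicate 3 lay above suckling replicates 2 and 3, so on this probe the groups overlapped even with suckling replicate 1 left out. The means were 3.25 ± 0.29 in weaned and 3.44 ± 0.69 in suckling piglets (SD, n = 4 each), a log2 difference of -0.18 (SE 0.33, 95% interval -0.92 to 0.56, limma adjusted p = 0.856). Without suckling replicate 1 it was -0.46 (limma adjusted p = 0.319), and without suckling replicate 4 it turned to 0.10. The other 4 SAR1B probes differed by -0.33 to -0.54 with all arrays and by -0.58 to -0.82 without suckling replicate 1. Without that array all 4 had an unadjusted limma p under 0.05 (adjusted p = 0.107 to 0.215), and on 3 of the 4 every weaned array was below the 3 suckling arrays. Of all tested probes, 9.30% then had such a p and a lower mean in weaned piglets, and 8.34% had every weaned array below. The 4 probes read the same gene on the same arrays, so they are not independent.

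Without suckling replicate 1, 0 of the 6 genes passed by limma, where 1.82% of 30344 tested probes passed, and 4 of 6 (APOA1, APOA4, APOC3 and MTTP) had an unadjusted p under 0.05 and a lower mean in weaned piglets, where 9.30% of tested probes did. In the same 4 genes every weaned array was below each of the 3 suckling arrays, against 8.34% of probes. The median log2 difference of the 6 genes was then -0.86, against 0.05 over all tested probes. With 1 of the other arrays left out instead, 0 or 1 of the 6 genes had an unadjusted limma p under 0.05. Suckling replicate 1 was the lowest suckling array for 5 of the 6 genes. Leaving it out raised their suckling means and narrowed their spread, so both counts of 4 follow in part from that choice. The villus enterocyte markers were lower too without this array. All 6 had a lower mean in weaned piglets, with a median of -0.68.

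**Figure D2:**
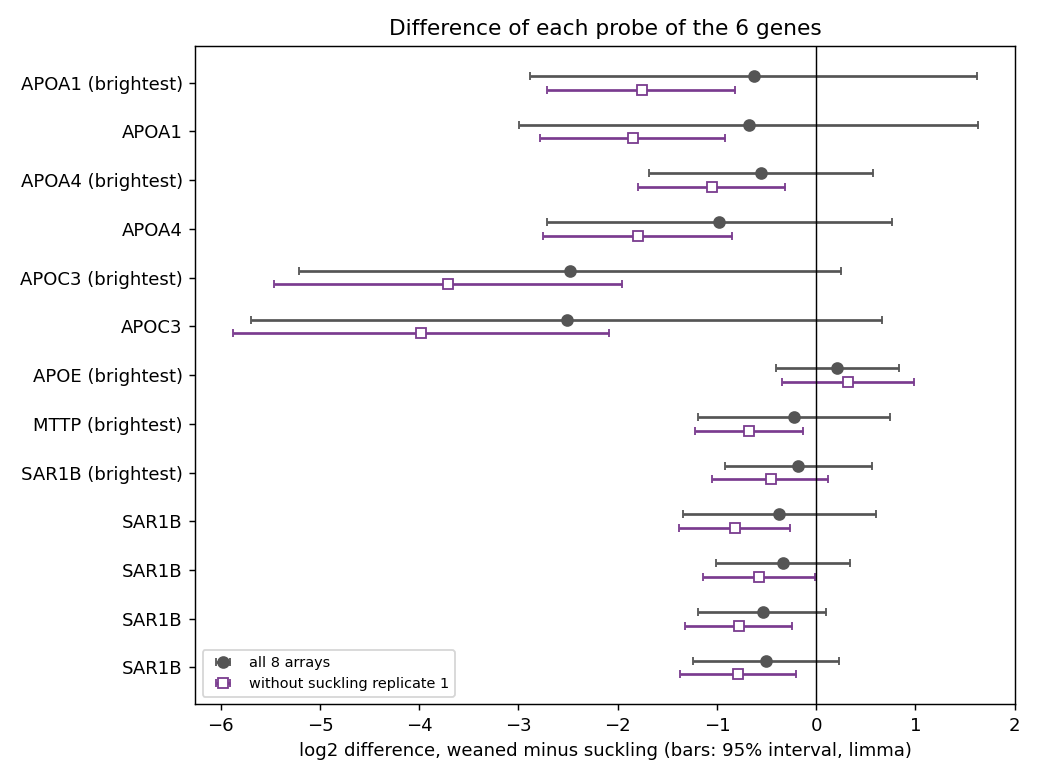
Log2 difference, weaned minus suckling, of all 13 probes of the 6 genes, with 95% intervals from limma, for all 8 arrays (filled circles) and without suckling replicate 1 (open squares). All intervals include 0 with 8 arrays; without suckling replicate 1 the differences of the probes other than that of APOE lie further below 0, that of APOC3 at -3.71 on its brightest probe.

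The median level of the 6 genes and that of the villus enterocyte markers ranked the arrays in a similar way, but not every gene did. APOE was lowest on suckling replicates 2 and 4, at -0.87 each. The median of the 6 genes' log2 levels, each minus its own mean over the arrays, was -0.80, -0.30, 0.20 and -0.28 in weaned piglets and -1.23, 0.52, 0.54 and 0.95 in suckling piglets. For the 6 villus markers it was -0.51, -0.19, 0.61 and -0.02 in weaned piglets and -1.60, 0.41, 0.46 and 0.94 in suckling piglets. Both were lowest on suckling replicate 1 and highest on suckling replicate 4, and within the weaned group both were lowest on replicate 1 and highest on replicate 3. All 6 villus markers were highest on weaned replicate 3 within their group, as were 3 of the 6 genes, where 26.5% of all tested probes were. The part of villus content in the genes' levels was not tested.

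**Figure D3:**
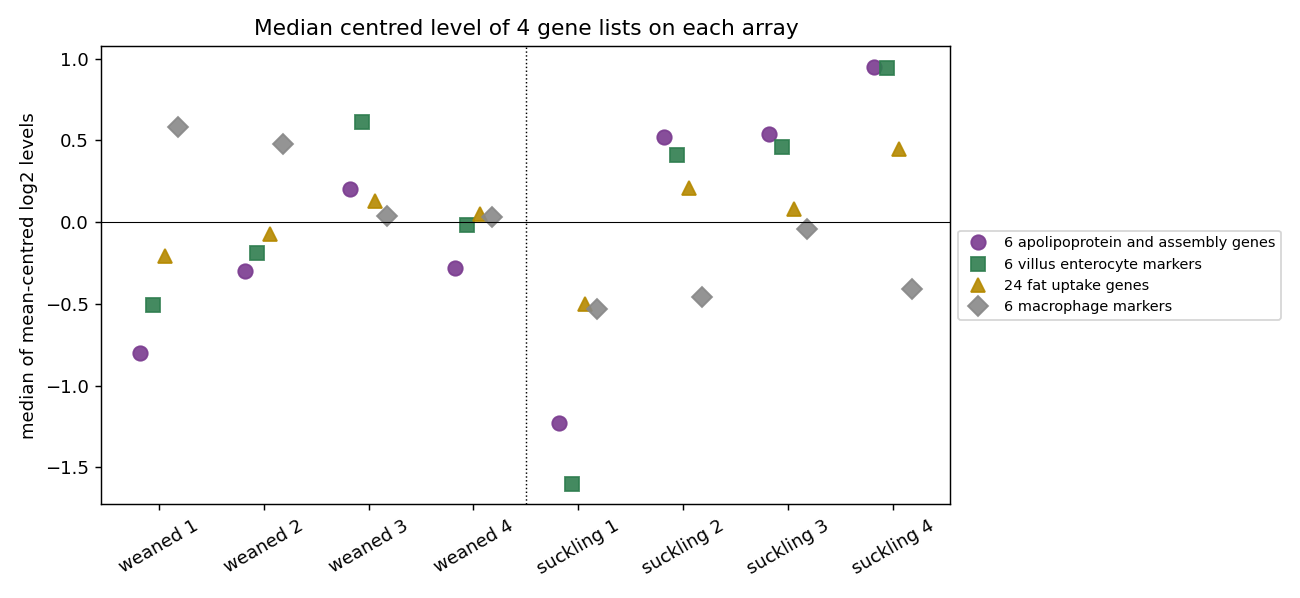
Median of the mean-centred log2 levels of 4 gene lists on each array, weaned arrays on the left of the dotted line and suckling arrays on the right. The 6 apolipoprotein and assembly genes (circles) and the 6 villus enterocyte markers (squares) are both lowest on suckling replicate 1, at -1.23 and -1.60, while the macrophage markers (diamonds) run from 0.03 to 0.58 on the weaned and from -0.53 to -0.04 on the suckling arrays.

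Set against the villus markers of the same array, APOC3 kept a large difference and that of MTTP was small. With the villus median subtracted, a description added after the data were seen and not tested, APOC3 was 4.33, 4.98, 6.86 and 6.14 in weaned piglets and 5.94, 8.72, 8.48 and 8.78 in suckling piglets. Its difference was -2.40 with all arrays and -3.08 without suckling replicate 1, against -2.48 and -3.71 before subtraction. APOA1 differed by -0.55 and -1.13 in this way. MTTP, at 6.78 ± 0.37 in weaned and 6.92 ± 0.19 in suckling piglets (SD, n = 4 each), differed by -0.14 and -0.05, and APOA4 on its brightest probe by -0.47 and -0.42. The dimmer APOA4 probe was not set against the villus markers. Before subtraction it differed by -0.98 and -1.80, more than the brightest at -0.56 and -1.05, so the APOA4 values here may not hold for it. The groups overlapped for APOC3 here too, through suckling replicate 1, which at 5.94 stayed below the other suckling arrays (8.48 to 8.78). The subtraction takes the same amount off every gene of an array, whatever a gene's own relation to villus content, which was not tested. APOE differed by 0.29 with all arrays and by 0.95 without suckling replicate 1, against 0.21 and 0.32 before subtraction. Leaving out suckling replicate 4 turned this difference to -0.14, and leaving out weaned replicate 1 gave -0.01. On its brightest probe SAR1B turned in direction, at -0.10 with all arrays and 0.17 without suckling replicate 1. The other 4 SAR1B probes were not set against the villus markers. Before subtraction they differed by more, -0.58 to -0.82 without that array, so the turn may not hold for them.

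Whether APOC3 differed more than its neighbours was read from differences within an array, which no scaling of whole arrays can change. Because probes differ in brightness, only the change of such a difference between arrays can be read, not its size. The log2 level of APOC3 minus that of APOA1 was -3.45, -3.01, -1.76 and -1.65 in weaned piglets, against -0.89, -0.60, -0.72 and -0.24 in suckling piglets. The groups did not overlap, although suckling replicate 1, at -0.89, was the suckling array nearest to the weaned ones; 0.278% of all tested probes, set against APOC3 in the same way, did not overlap either. The means were -2.47 ± 0.90 and -0.61 ± 0.28 in weaned and suckling piglets (SD, n = 4 each), a difference of -1.85 (exact two-sided permutation p = 0.0286, the smallest that 70 arrangements allow). This was the single one of 15 pairs of genes without overlap, the pairs were examined after the data were seen, and the p-value adjusted over the pairs was 0.321 by the Benjamini-Hochberg method. Of the 4 combinations of an APOC3 with an APOA1 probe, the 2 with the brighter APOC3 probe did not overlap; the other 2 gave differences of -1.88 and -1.83 with overlap (exact permutation p = 0.0571 each). Against APOA4, APOC3 differed by -1.93 between the groups, with overlap (exact two-sided permutation p = 0.0857, adjusted p = 0.321).

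Among the genes themselves, on the brightest probe of each, MTTP and SAR1B were the most alike over the 8 arrays. The root mean square difference between their mean-centred log2 levels was 0.28, closely followed by APOA4 and MTTP at 0.29. Other probes of APOA1, APOA4, APOC3 and SAR1B were not compared in this way, so the order may differ on them. APOC3 and APOE were the least alike, at 2.44. Of 2769 other named genes, those with the pattern most like the median of the 6 genes over the 8 arrays were ITM2C (root mean square difference 0.14), SH3YL1 (0.17), POR (0.20), PON2 (0.21) and ENPEP (0.21); the median over the named genes was 0.76. ENPEP, a brush border aminopeptidase, is also a member of the villus list, and POR encodes the electron donor of microsomal cytochrome P450 enzymes. None of the 5 passed the test between the groups with 8 arrays (limma adjusted p = 0.618 to 0.889). Without suckling replicate 1 none passed either (limma unadjusted p = 0.0011 to 0.0272, adjusted p = 0.0526 to 0.169). All 5 then lay further below 0, PON2 at -0.98 and POR at -0.62. In ITM2C, SH3YL1, PON2 and ENPEP every weaned array was below each remaining suckling array, against 8.34% of probes. The 5 were chosen for likeness to the 6 genes, so this shift follows in part from that choice.

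Other genes of fat absorption and lipoprotein metabolism were taken from 5 lists, and in all 5 none of the tested genes passed with 8 arrays (limma). The counts below stand beside 45.1% of all tested probes with a lower mean in weaned piglets. An unadjusted limma p under 0.05 was found for 12.3% of them. Of other apolipoproteins, 5 of 18 listed genes were tested, 3 higher and 2 lower in weaned piglets and 1 with an unadjusted p under 0.05; the median log2 difference was 0.25. APOA2, a minor protein of high-density lipoproteins, was 1.38, 1.24, 1.67 and 1.36 in weaned piglets, against 1.17, 1.05, 0.69 and 0.98 in suckling piglets. The groups did not overlap, as was so for 7.76% of all tested probes, and the log2 difference was 0.44 (SE 0.16, limma adjusted p = 0.340). APOM, a carrier of sphingosine-1-phosphate, ran from -0.91 to 2.85 in weaned and from -0.26 to 3.51 in suckling piglets, a difference of -1.30 (SE 0.97, limma adjusted p = 0.620). APOF, which inhibits cholesteryl ester transfer, had means of -1.14 ± 0.19 and -1.62 ± 0.65 in weaned and suckling piglets (SD, n = 4 each; limma adjusted p = 0.557). It was the 1 gene of this list past the threshold without suckling replicate 1, higher in weaned piglets by 0.81 (limma adjusted p = 0.0455).

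The list of the vesicle coat and secretory route held 5 tested genes of 29 listed, all 5 with a higher mean in weaned piglets, though 4 of 5 under quantile normalisation, median scaling or the deposited log2 table, and without weaned replicate 1, suckling replicate 1 or suckling replicate 3. Their median log2 difference was 0.34, with a range of 0.18 to 0.57 when 1 array was left out, and none had an unadjusted p under 0.05. Of all tested probes, 45.1% had a lower mean in weaned piglets, so 5 genes of 1 direction show little about the route. SAR1A, the close relative of SAR1B, was 2.57, 2.52, 2.00 and 2.87 in weaned piglets, against 2.01, 1.96, 1.98 and 2.37 in suckling piglets, a difference of 0.41 (SE 0.20, limma adjusted p = 0.463). Suckling replicate 1 lay inside its group for SAR1A, whereas on the brightest SAR1B probe it was lowest of all arrays. This did not hold on every SAR1B probe: on another it was at 2.23, above weaned replicate 1 at 1.98. The chaperones CANX and HSP90B1 differed by 0.34 and 0.30 (limma adjusted p = 0.728 and 0.777).

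Fat uptake and triglyceride resynthesis had 24 tested genes of 34 listed, 11 higher and 13 lower in weaned piglets and 1 with an unadjusted p under 0.05, with a median of -0.05. The median was -0.25 without suckling replicate 1 and turned to 0.11 without suckling replicate 4, where 16 of the 24 were higher. DGAT2, which joins the last fatty acid to triglyceride, was -0.48, -1.14, 0.95 and -0.31 in weaned piglets, against -1.58, 1.70, 1.14 and 2.65 in suckling piglets. As for APOA1 and APOA4, suckling replicate 1 lay below all weaned arrays and the other 3 suckling arrays above them. Its difference was -1.22 (SE 0.83, limma adjusted p = 0.588), and -2.07 without suckling replicate 1 (limma adjusted p = 0.0753). ACSL1, which activates long-chain fatty acids, differed by 0.37 (SE 0.16, limma adjusted p = 0.399) and AGPAT3, an acyltransferase, by -0.44 (limma adjusted p = 0.600).

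Regulators of apolipoprotein genes had 18 tested genes of 40 listed, 8 higher and 10 lower in weaned piglets and 3 with an unadjusted p under 0.05, with a median of -0.04. SREBF1, a transcription factor that drives fatty acid synthesis, was 1.74, 1.62, 1.83 and 1.70 in weaned piglets, against 1.00, 0.76, 0.86 and 1.14 in suckling piglets. The groups lay apart, as for 7.76% of all tested probes, suckling replicate 1 was inside its group, and both SREBF1 probes pointed upward. The log2 difference was 0.78 (SE 0.14, limma adjusted p = 0.0890), and 0.80 without suckling replicate 1, where it passed (limma adjusted p = 0.0445). PPARG, a fatty acid-sensing nuclear receptor, was 2.14 to 2.64 in weaned and 0.09 to 1.58 in suckling piglets, a difference of 1.30 (SE 0.32, limma adjusted p = 0.194), with 2 of its 3 tested probes pointing upward. FGF21, a metabolic hormone whose gene CREB3L3 is known to regulate in mice, differed by 0.58 (SE 0.21, limma adjusted p = 0.329). The 1 tested FGF21 probe was dim, with processed signals of 11.4 to 32.3.

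Lipases, transfer proteins and lipoprotein receptors had 9 tested genes of 30 listed, 4 higher and 5 lower in weaned piglets and 2 with an unadjusted p under 0.05, with a median of -0.06. LPL, the lipase that APOC3 inhibits, was 1.28, 0.52, -0.39 and 0.93 in weaned piglets, against 0.29, -2.38, -0.70 and -1.82 in suckling piglets. The groups overlapped, with suckling replicate 1 the highest of its group. The difference was 1.74 (SE 0.58, 95% interval 0.43 to 3.05, limma adjusted p = 0.296), all 5 of its probes pointed upward, and without suckling replicate 1 it was 2.22 (limma adjusted p = 0.0584). LRP8, a receptor for APOE, differed by 0.87 (SE 0.26, limma adjusted p = 0.252), and SCARB1, a receptor for high-density lipoprotein, by -0.86 (SE 0.60, limma adjusted p = 0.593). LRP8 was dim, with processed signals of 16.6 to 51.4.

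**Figure D4:**
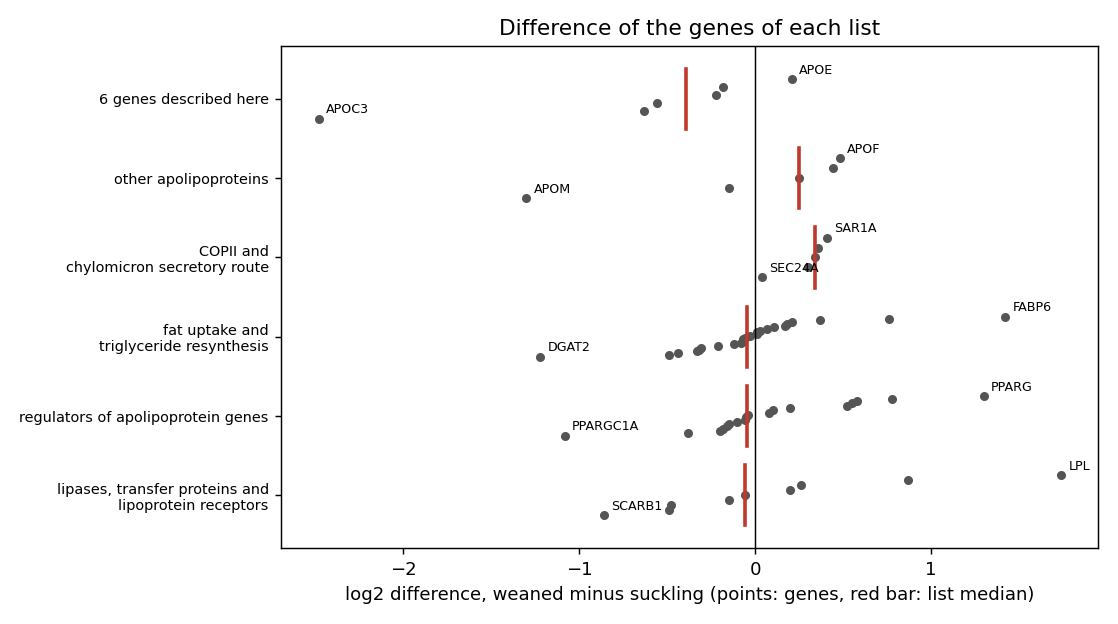
Log2 difference, weaned minus suckling, of each tested gene of 6 lists (points) with the list median (red bar), all 8 arrays. The 6 genes described here have the lowest median, -0.39, with APOC3 at -2.48, and LPL stands highest in its list at 1.74; none of the points passed the test.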

How the data were processed

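Per the submitters' processing notes, scans were read with Agilent Feature Extraction 10.7. Per the file headers, the deposited processed intensity of a spot is background-subtracted. The labels' protocols set a minimum RNA integrity number of 7.0. The deposited table holds log2 values of the same arrays, whose shared distribution resembles quantile normalisation, a step not given in the sources used here.

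Control spots were left out, outlier-flagged spots set to missing, spots of a probe averaged on the log2 scale, and each array's 75th percentile subtracted. A probe was tested when well above background on at least 4 arrays with at least 3 values per group. RefSeq accessions gave 6924 probes 1 of 3216 symbols through a table of the Sscrofa11.1 assembly, used for names and gene order alone. The group comparison used limma 3.58.1 under R 4.3.3 (linear model with group as sole term, moderated by eBayes, two-sided, Benjamini-Hochberg over all tested probes, threshold 0.05). The fit was also run on simulated data with independent errors. These held no array that stood apart, so the run does not cover a case like suckling replicate 1. The number of arrays limits the precision.

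The members and lists were chosen with earlier results of these data known. All members are named; other lists name their genes past the threshold, otherwise the 3 with the smallest p; and the 5 genes most like the members' median are named. Other genes are represented by their brightest tested probe.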

Additional observations from a re-analysis of the deposited data

Results flagged for a closer look

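Values of the genes named, of the lists and of the 75th percentile were examined in 86 groups of 4 arrays. An extreme value was noted where its distance from the next one, as a fraction of the range, exceeded 0.829, which chance gives in about 5% of independent groups; the groups here share arrays. This held for 11 groups, and in 8 of them the extreme array was suckling replicate 1. It was lowest for APOA1 (0.938), APOC3 (0.856), APOA4 (0.856), ENPEP (0.917), PON2 (0.866) and SH3YL1 (0.858) and for the liver marker list (0.833), and highest for APOF (0.976). ENPEP, PON2 and SH3YL1 had been chosen for likeness to the members' median, itself lowest on this array. Their flags follow in part from that choice, so the count of 11 cannot be read against 5%. Suckling replicate 4 was highest for SAR1A (0.879), suckling replicate 3 for the smooth muscle list (0.901), and weaned replicate 1 was lowest for the 75th percentile (0.918).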

How the results depend on the processing

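No member passed the limma threshold under any of 19 other settings (3 scalings or corrections, 2 filters on dim probes, flagged spots kept, 2 variance models, the replicate block, the deposited table, each of 8 arrays left out, and the mean over probes), and APOA1, APOA4, APOC3 and APOE kept their direction in all of them. The median of the members ran from -0.86 to -0.07 with 1 array left out, APOC3 from -3.71 to -1.91, APOA1 from -1.76 to -0.19, APOA4 from -1.05 to -0.32 and APOE from 0.07 to 0.39; MTTP ran from -0.68 to 0.04 and SAR1B from -0.46 to 0.10, both turning without suckling replicate 4. The count of all probes past the threshold was 54, ran from 9 to 553 with 1 array left out, and was 362 with array weights. Regulators had 1 gene past the threshold, SREBF1, with normexp and with array weights and 0 to 1 with 1 array left out, where their median ran from -0.07 to 0.05; other apolipoproteins had 0 to 1, and their median was 0.08 with normexp. For normexp, median spot signals were used. Same-numbered piglets deviated from their group means with correlations of 0.368, 0.008, 0.186 and -0.018, and not every array correlated best with its own number; with the replicate block 0 of 30554 probes passed (limma; 13.7% had an unadjusted p under 0.05). Villus scaling and within-array differences were added after seeing the data. APOB, APOC2 and CREB3L3 had no value under any setting. The signal over background limited nothing for the members, which were well above it on all arrays.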
